A study of Homo sapiens with 4 samples.

Results

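The genes for the synthesis, transport and nuclear reception of retinoic acid were examined in Ca9-22, a gingival squamous carcinoma cell line, after silencing of KPNA4. KPNA4 encodes karyopherin-α4, an adaptor that carries proteins with a nuclear localization signal into the nucleus. The 9 genes were chosen by name for their place in the pathway, namely ALDH1A1, ALDH1A3, RDH10, DHRS9, CRABP2, RARB, RARG, CYP26B1 and RARRES1. Of these, 8 had a probe whose transcript could be matched by accession, among 27708 genes with a probe on the arrays, and they carried 11 probes. DHRS9 was left without a value. The study compared 2 negative control cultures with 2 cultures in which KPNA4 was knocked down, all grown in medium with fetal bovine serum and taken 3 days after transfection. The sample labels name siRNA, while the figure legends of the study speak of shRNA for the same arrays. Each culture was read on 1 single-colour Agilent array, and all 4 arrays shared a slide. Nothing in the labels says that the cultures came from separate experiments, so the p-values measure the spread between these arrays, and the knockdown cannot be told apart from any other difference between the 2 pairs of cultures.

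Vitamin A, or retinol, is oxidized to retinaldehyde by short-chain dehydrogenases such as RDH10 and DHRS9, and then to retinoic acid by the retinaldehyde dehydrogenases ALDH1A1 and ALDH1A3. CRABP2 hands retinoic acid to the receptors RARA, RARB and RARG, which bind DNA with an RXR partner at direct repeats of a 6-base motif, while the CYP26 enzymes degrade the ligand. In stratified epithelia retinoids restrain cornification and favour a mucosal type of differentiation. RARRES1 is a retinoic acid responsive gene, and RARB and CYP26A1 are textbook direct targets of the receptors.

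Of the 8 chosen genes with a promoter sequence, only RARB held the direct repeat with a 5-base gap in the window from 250 bases before to 50 bases after a start site, and did so at 1 of its start sites. Of the genes listed further below, promoters were at hand for 26 of 36 of metabolism and transport and 17 of 19 receptors and coregulators. They were at hand for 12 of 20 retinoid-induced and 9 of 11 retinoid-repressed genes, and the rest were not searched. Among the listed genes searched, only CYP26A1, a retinoic acid hydroxylase and sister enzyme of CYP26B1, held it. The 120 bases before the start site of each are shown because these are the matches that the signal changes can be set beside, with the repeat in capitals, from RefSeq on the GRCh38.p14 assembly. The RARB stretch is chr3:25428143-25428262 and the CYP26A1 stretch is chr10:93073773-93073892, both on the plus strand.

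RARB: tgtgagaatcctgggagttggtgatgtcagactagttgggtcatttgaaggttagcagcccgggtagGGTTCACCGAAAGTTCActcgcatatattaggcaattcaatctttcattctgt

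CYP26A1: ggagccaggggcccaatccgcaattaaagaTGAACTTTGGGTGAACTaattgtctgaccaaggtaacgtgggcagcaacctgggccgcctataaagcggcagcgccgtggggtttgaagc

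The RARB repeat ran from -53 to -37 relative to the start and was read as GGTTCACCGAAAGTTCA on the strand of the gene. The CYP26A1 repeat lay on the opposite strand, from -90 to -74, and was read there as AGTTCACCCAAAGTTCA. The search took any ordered pair of the 6-base motifs AGGTCA (or its variant GGGTCA) and, with a change in the middle, AGTTCA (or its variant GGTTCA), with a gap of 5, 2 or 1 bases, on both strands. A 5-base gap was found in 31 of 35116 promoter windows (0.088%), belonging to 29 of 27305 genes. Repeats with a 2-base gap were in 0.040% and with a 1-base gap in 0.131% of all windows, and neither was found in the 14 windows of the chosen genes. A match in these letters is a description of the sequence and not a measured binding site.

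The signal of each probe is given as log2 of the processed signal relative to its array's 75th percentile, which therefore reads 0. The percentile stood at 1466 and 1381 in the controls, against 1938 and 2096 in the knockdown. Between 70.2 and 71.0% of 34127 probes were well above background, as flagged by the scanner software, and no spot was saturated. The KPNA4 probe read 4.02 and 4.03 in the controls and 2.36 and 2.05 in the knockdown, a fall of 3.53-fold (log2 fold change -1.82, SE 0.12, adjusted p = 0.00183, limma). Over 19540 genes tested, 49.8% were called at an adjusted p under 0.05, of which 3974 (20.3% of those tested) were higher and 5764 (29.5%) were lower in the knockdown. At least 2-fold changes were seen for 1032 genes higher and 630 lower. The share of calls that were higher, 40.8%, became 91.5% without scaling to the percentile and 29.3% after normexp background correction that left out 12 spots in very bright surroundings. The median log2 fold change of all genes was -0.10, and 0.40 without scaling, so small changes below are relative to the percentile. All 8 squamous epithelial markers looked up were well above background in both groups. For each marker list the scaled signals were summed before taking the log2. The log2 of this sum was 5.06 and 5.01 in the controls and 6.01 on both knockdown arrays. DSP, the brightest of the squamous markers, read 4.48 and 4.38 in the controls and 5.15 and 5.12 in the knockdown. Of the 8, 7 were called higher and TP63 was not called. Fibroblast markers summed to -2.81 and -2.77 in the controls and -1.60 and -1.53 in the knockdown, with COL3A1 not well above background anywhere. They did not share a direction. COL1A1, COL1A2 and PDGFRB were called higher, LUM was called lower and DCN was not called. Leukocyte markers summed to 2.08 and 2.06 in the controls and 2.63 and 2.55 in the knockdown, nearly all of it CD14. Endothelial markers (-3.49 and -3.38, then -3.90 and -3.98; PECAM1 and KDR not well above background) and melanocyte markers (-2.68 to -2.50 on all arrays; TYR not well above background) were low. The part of these levels in the results was not tested.

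Of the 7 chosen genes tested, CRABP2, RARB and RARG rose after KPNA4 silencing and ALDH1A3 and RARRES1 fell. RDH10 and ALDH1A1 did not pass the test, and CYP26B1 was not well above background on any array. Thus 3 of 7 were called higher, against 20.3% of all genes, and 2 of 7 lower, against 29.5%. The 3 include RARB, which passed the filter through its knockdown arrays alone, where it was higher. With all 4 arrays required to be well above background, 2 of 6 chosen genes were called higher and 2 of 6 lower. Of all genes 3801 of 18509 were then called higher and 5779 lower. The 3 that rose did so by more than 2-fold, whereas neither that fell reached 2-fold. The median log2 fold change of the 7 was 0.18, against -0.10 for all genes, and 5 of 7 were called where 49.8% of all genes were.

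**Figure D1:**
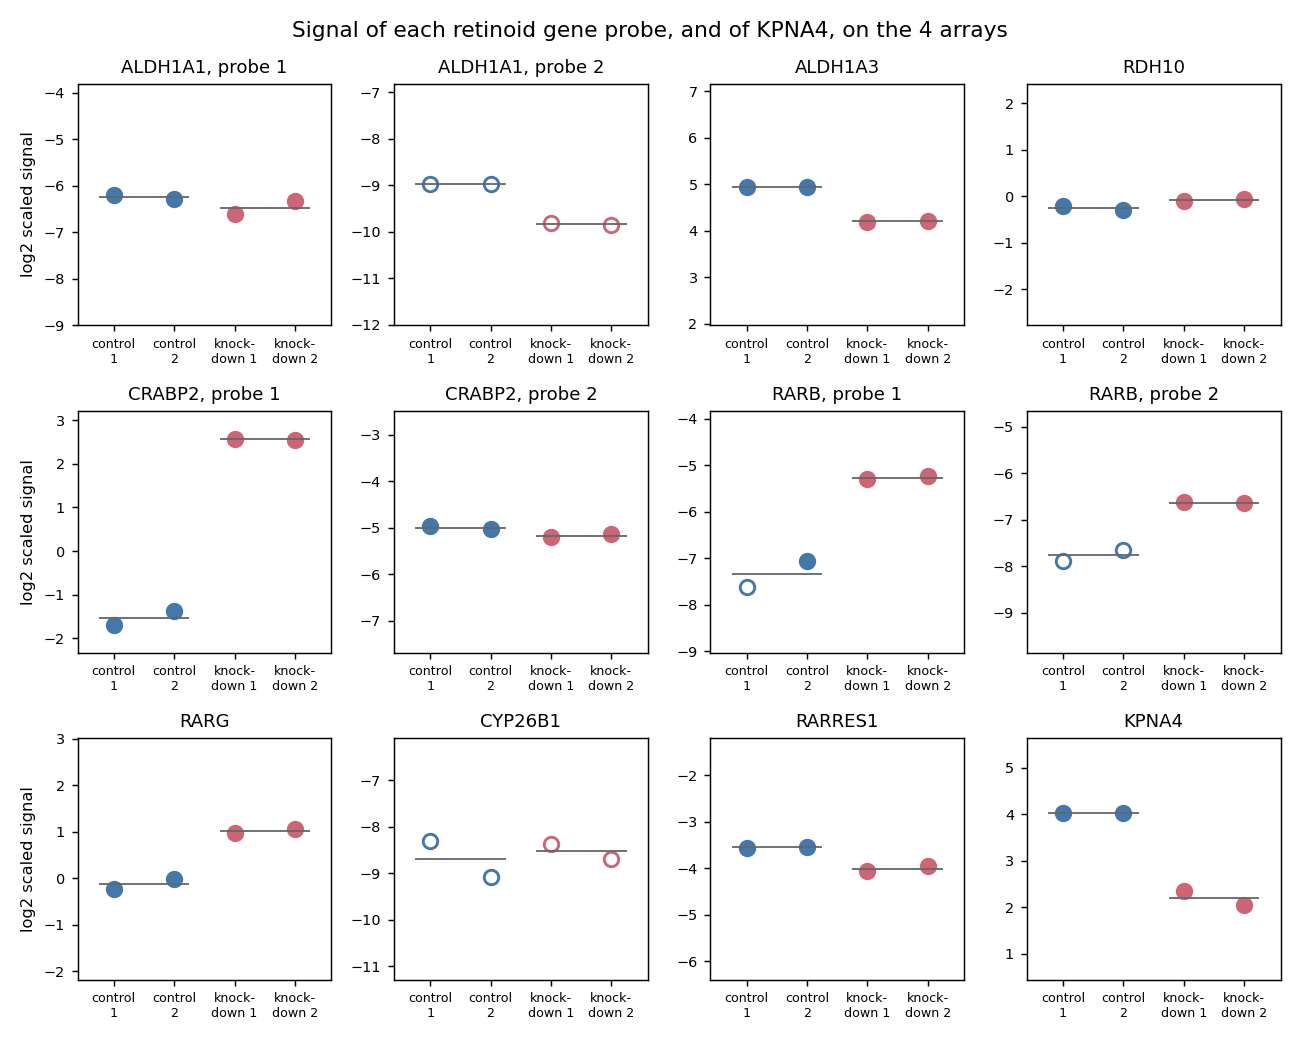
Each panel plots the log2 scaled signal (vertical axis) of 1 probe on the 2 control arrays (blue) and 2 knockdown arrays (red); bars are group means, open points are not well above background, and every panel has its own axis range. CRABP2 probe 1, both RARB probes and RARG sit higher on the knockdown arrays, ALDH1A3, RARRES1 and KPNA4 sit lower, and CRABP2 probe 2 stays near -5.

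Among the enzymes that make retinoic acid, ALDH1A3 passed the test and RDH10 and ALDH1A1 did not. ALDH1A3, the retinaldehyde dehydrogenase, read 4.93 and 4.93 in the controls and 4.20 and 4.22 in the knockdown. Both knockdown arrays lay below both controls, and the fall was 1.65-fold (log2 fold change -0.73, SE 0.06, adjusted p = 0.00246, limma). Without scaling the difference was -0.22 with an adjusted p of 0.118, so the call for ALDH1A3 rests on the scaling. RDH10, which makes retinaldehyde from retinol, read -0.21 and -0.30 in the controls and -0.10 and -0.05 in the knockdown. The knockdown arrays were slightly higher without overlap, but the log2 fold change of 0.18 (95% confidence interval -0.0031 to 0.36) had an adjusted p of 0.0889. RDH10 passed the test without scaling, with a log2 fold change of 0.68 and an adjusted p of 0.00157, and after normexp without the bright surroundings, at 0.16 and 0.0414.

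ALDH1A1, the other retinaldehyde dehydrogenase, had a brighter probe at -6.20 and -6.28 in the controls and -6.61 and -6.34 in the knockdown. Its log2 fold change was -0.23 (95% confidence interval -0.54 to 0.08, adjusted p = 0.159). The interval holds no change and a fall of the size seen for RARRES1 alike, and the sign of the ALDH1A1 difference turned without scaling, at 0.27. After normexp without the bright surroundings ALDH1A1 was called lower, at -0.38 (adjusted p = 0.00229). The dimmer ALDH1A1 probe read between -9.86 and -8.97 and was not well above background on any array. CYP26B1, the enzyme that clears retinoic acid, was likewise not well above background, at -8.30 and -9.08 in the controls and -8.36 and -8.69 in the knockdown, with overlapping groups.

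CRABP2, the carrier that delivers retinoic acid to the receptors, showed the largest change of the 7. Its brighter probe read -1.69 and -1.38 in the controls and 2.58 and 2.54 in the knockdown. The groups were far apart, with a 17.1-fold rise (log2 fold change 4.10, SE 0.12, adjusted p = 0.000483). The second CRABP2 probe, designed on another transcript, read -4.96 and -5.03 in the controls and -5.21 and -5.14 in the knockdown. Its log2 fold change was -0.18 with an adjusted p of 0.0924 in a fit over probes, in which 48.4% of 24185 probes were called. After normexp without the bright surroundings this second probe was called lower, at -0.28 (adjusted p = 0.00597), and without scaling it was called higher, at 0.32 (adjusted p = 0.0461). The CRABP2 probes thus disagreed, and their mean gave a log2 fold change of 1.96 in place of 4.10.

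Of the receptors, RARB and RARG both rose. RARG, the main retinoic acid receptor of the epidermis, read -0.23 and -0.01 in the controls and 0.98 and 1.06 in the knockdown. Both knockdown arrays were above both controls, by 2.20-fold (log2 fold change 1.14, SE 0.10, adjusted p = 0.00308), and leaving out any 1 array kept the RARG call.

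RARB, often low in squamous carcinomas, read -7.63 and -7.05 in the controls and -5.30 and -5.23 in the knockdown with its brighter probe. In processed signal this was 7.41 and 10.4 units against 49.1 and 55.7 units. The probe was well above background on 1 of 2 control arrays and on both knockdown arrays. The rise was 4.21-fold (log2 fold change 2.07, SE 0.21, adjusted p = 0.00441). The second RARB probe read -7.89 and -7.64 in the controls, below the background limit on both, and -6.62 and -6.64 in the knockdown. It was therefore at least 1.68-fold higher in the knockdown, counting each control array at the lowest signal well above background. The adjusted p of 0.0033 in the fit over probes belongs to the measured means, -7.77 and -6.63, and not to this bound. Both probes are dim, and after normexp without the bright surroundings, which adds 50 units to every signal, the log2 fold change was 0.30 (adjusted p = 0.0143) for the brighter RARB probe and -0.18 (adjusted p = 0.0432) for the second. With the requirement of all 4 arrays above background, RARB was not tested.

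RARRES1, induced by retinoids in skin, read -3.57 and -3.53 in the controls and -4.06 and -3.96 in the knockdown. It was lower on both knockdown arrays, by 1.38-fold (log2 fold change -0.46, SE 0.07, adjusted p = 0.00974). The RARRES1 call was lost without knockdown replicate 1, at an adjusted p of 0.0598, and the difference became 0.04 without scaling. RARRES1, a retinoic acid responsive gene, and RARB, a textbook direct target of the receptors, thus differed in direction under the percentile scaling.

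**Figure D2:**
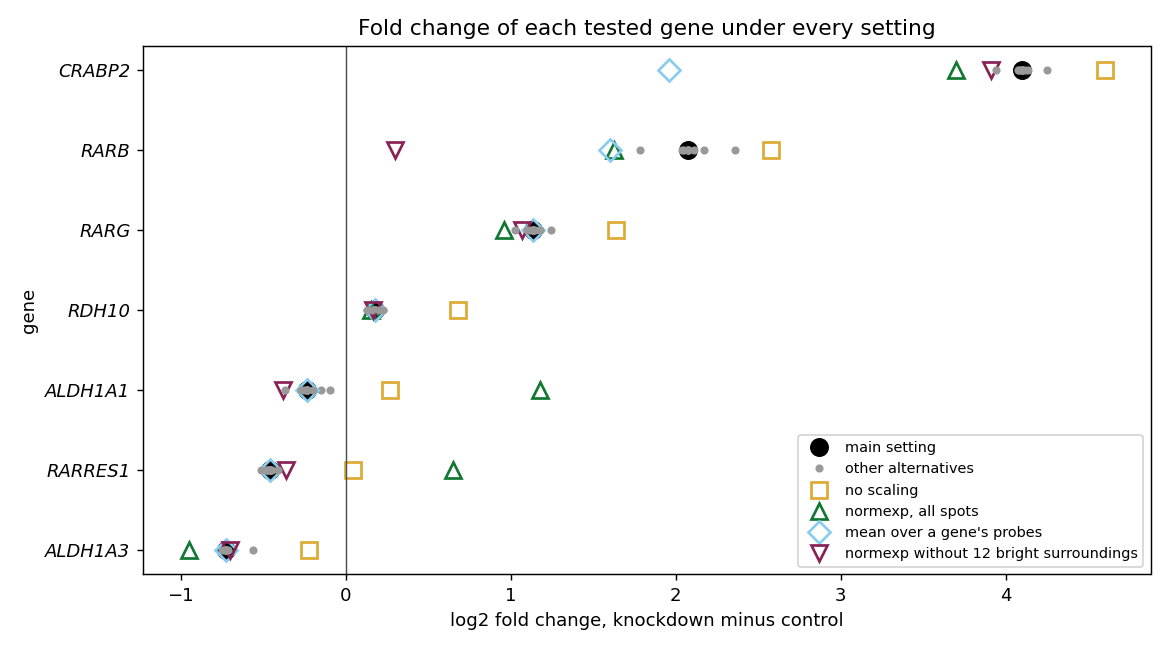
Log2 fold change (horizontal axis, knockdown minus control) of each of the 7 tested genes under the setting used (black) and 15 alternatives (14 for RARB). CRABP2, RARB and RARG stay above 0 in each setting drawn, while ALDH1A1 and RARRES1 cross 0 without scaling and with normexp on all spots, and RARB falls to 0.30 with normexp without the 12 bright surroundings.

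The pathway around these genes was read from lists. Of 36 other genes of retinoid metabolism and transport, 24 were tested, 13 were called higher and 5 lower, with a median log2 fold change of 0.46. Of all genes 20.3% were called higher and 29.5% lower, with a median of -0.10. Setting the 2 genes below background in the controls at their bounds left that median at 0.46. At least 2-fold changes numbered 10 higher and 1 lower, against 1032 and 630 of 19540 for all genes. The 10 count those 2 genes, RDH12 and BCO1, at their measured values, while their bounds were only 1.99-fold and 1.47-fold. Both passed the filter through the knockdown arrays alone. With all 4 arrays required to be well above background, 22 genes of the list were tested and 11 called higher. By the naming rule AKR1B10 and FABP5 are given. AKR1B10, a reductase that turns retinaldehyde back to retinol, read -4.92 and -4.98 in the controls and 0.62 and 0.72 in the knockdown (log2 fold change 5.62, adjusted p = 0.00022), with a second probe at 5.37. FABP5, a carrier that delivers retinoic acid to PPARD in place of the RARs, read -6.11 and -6.06 in the controls and -1.41 and -1.34 in the knockdown (log2 fold change 4.71, adjusted p = 0.00022), and its other probes gave 4.62 and 3.98. AKR1B10 and FABP5 have close relatives in the genome, whose share in these probe signals was not tested. After normexp without the bright surroundings FABP5, dim in the controls, gave 2.77.

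Further genes of the same list are named after their values were seen, for their roles. CYP26A1, which clears retinoic acid and carries the repeat shown above, read -2.96 and -2.97 in the controls and -0.53 and -0.53 in the knockdown. Replicates were close and the rise was 5.40-fold (log2 fold change 2.43, SE 0.05, adjusted p = 0.000321). STRA6, the membrane receptor for retinol uptake, rose by 2.27 on the log2 scale, with a second probe at 1.80, and RBP4, the serum retinol carrier, rose by 2.81. DHRS3, which reduces retinaldehyde and so opposes RDH10, rose by 1.21 (adjusted p = 0.00187). STRA6 and RBP4 were dim in the controls, and normexp without the bright surroundings gave 1.20 and 0.87. RDH12, a retinaldehyde reductase, and BCO1, which cleaves beta-carotene, were not well above background in the controls. They were at least 1.99-fold and 1.47-fold higher in the knockdown under the percentile scaling. Their adjusted p-values (0.00586 and 0.0123, limma) belong to the measured signals, which lie below background in the controls, and not to these bounds. Both differences turned negative after normexp without the bright surroundings, at -0.087 and -0.032. RBP7, a cellular retinol binding protein, fell from 2.96 and 2.83 to 1.27 and 1.27 (log2 fold change -1.62, adjusted p = 0.000878). CRABP1, the sister carrier of CRABP2, fell by 0.38 (adjusted p = 0.00965), a call that was lost without either knockdown array and that became 0.12 without scaling.

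Of 19 other receptors and coregulators, 18 were tested, 8 were called higher (20.3% of all genes) and 1 lower (29.5%), with a median of 0.18. The 9 called of 18 compare with 49.8% of all genes. Those named by the rule were KAT2B, an acetyltransferase coactivator (log2 fold change 1.67, adjusted p = 0.000832), NCOR1, the corepressor of unliganded receptors (1.23, 0.00168), and NCOA3, a coactivator (1.11, 0.00261). The 3 NCOR1 probes gave 1.23, 1.44 and 1.37. The remaining receptors are named after their values were seen. RARA, in contrast to RARB and RARG, was the gene called lower, from 1.01 and 1.08 in the controls to 0.41 and 0.43 in the knockdown (log2 fold change -0.62, adjusted p = 0.00400). Without scaling the RARA difference was -0.12 with an adjusted p of 0.364, and its dimmer probe gave -0.89 with an adjusted p of 0.104. RXRA, the usual partner, rose from 3.50 and 3.63 to 4.07 and 4.01 (0.47, adjusted p = 0.0120), a call that was lost without either knockdown array (adjusted p = 0.0669 and 0.0566). RXRB (-0.015, 95% confidence interval -0.26 to 0.23) and RXRG (-0.050, -0.26 to 0.16) did not pass the test, although RXRG was called lower after normexp without the bright surroundings, at -0.24 (adjusted p = 0.0159). Under no scaling 16 of the 18 receptors and coregulators were called higher and none lower.

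**Figure D3:**
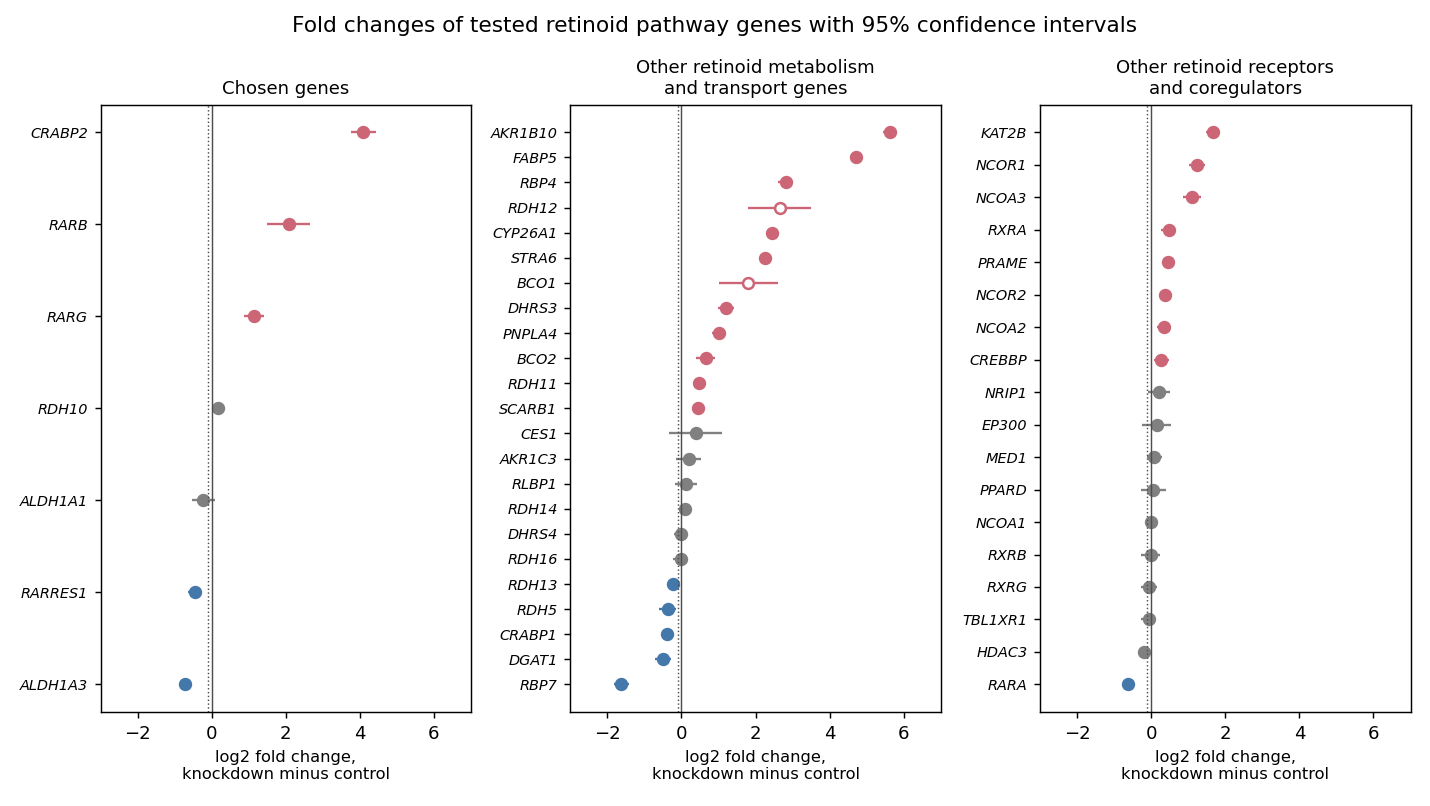
Log2 fold change (horizontal axis, knockdown minus control) of tested genes of 3 lists with its 95% confidence interval from the limma fit; red is called higher, blue called lower, grey not called, open points are not well above background in the controls, and the dotted line is the median of all genes at -0.10. CRABP2, AKR1B10 and FABP5 lie above 4, and RBP7 at -1.62 lies lowest of the 3 panels.

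Genes listed as known to respond to retinoic acid did not share a direction. RARB (2.07), CYP26A1 (2.43) and RARRES1 (-0.46), described above as targets or responders, were counted in the other lists and not here. The 20 genes listed as induced were reported so in one cell type or another, not in keratinocytes as such. Of these, 19 were tested, 10 were called higher and 7 lower, with a median log2 fold change of 0.37. The share called was 89.5%, against 49.8% of all genes, of which 20.3% were higher and 29.5% lower. The rule named KRT13, a keratin of mucosal epithelia (6.07, adjusted p = 0.000267), AQP3, a water and glycerol channel (2.93, adjusted p = 0.000436), and CD38, an ectoenzyme (1.84, adjusted p = 0.000691, and 0.53 after normexp without the bright surroundings). The 2 genes of this list that fell by at least 2-fold, named after their values were seen, were HBEGF, an EGF receptor ligand (-1.36, adjusted p = 0.00183), and ICAM1, an adhesion molecule (-1.08, adjusted p = 0.0016). PLAAT4, a phospholipase also known as a retinoid responder and likewise named after its values were seen, rose with a log2 fold change of 0.62 (adjusted p = 0.00332). The probes of TGM2, a classical retinoid-induced transglutaminase, disagreed, at -0.39 for the brighter and 0.58 for the dimmer (adjusted p = 0.0130 and 0.00451 over probes), and the call of the brighter was lost without either knockdown array (adjusted p = 0.0791 and 0.0695). Of 11 genes known to be repressed by retinoic acid in keratinocytes, 7 were tested, 4 were called higher (20.3% of all genes) and 1 lower (29.5%), with a median of 1.48. These included SPRR1B, a cornified envelope precursor (4.35, adjusted p = 0.000308), and TGM1, the transglutaminase that crosslinks the envelope (1.57, adjusted p = 0.00464). They also included KRT1, a keratin of cornifying epidermis, which is given as at least 5.15-fold higher because it was not well above background in the controls. The adjusted p of 0.00327 for KRT1 (limma) belongs to the measured means, -8.45 and -5.01, and not to that bound. That bound holds for the percentile scaling, and KRT1 gave a log2 fold change of 0.61 (adjusted p = 0.000877) after normexp without the bright surroundings. FLG, KRT10 and CDSN of this list are named after their values were seen. FLG was the gene called lower, by at least 1.62-fold, as it was not well above background in the knockdown. KRT10 (0.17) and CDSN (-0.96) were not called. KRT1 passed the filter through the knockdown arrays alone, and FLG and CDSN through the controls alone. With all 4 arrays required, 4 genes were tested, with 3 called higher and 0 lower. The list was written with the rise of cornification genes in these data known and is no independent evidence of its direction. Genes known to be induced and genes known to be repressed by the ligand were thus both found among those that rose.

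Of the 29 genes with a 5-base-gap repeat in a promoter window, 12 were tested, 4 were called higher and 1 lower, against 20.3% and 29.5% of all genes, and their median log2 fold change was -0.04. RARB was tested only through its knockdown arrays, because 1 of its 2 control arrays was not well above background. The motifs searched include those that RARB and CYP26A1 carry, so the presence of these genes here is no independent result. Among the 12, CYP26A1 and RARB ranked 1 and 2. Next, named after their values were seen, came PRSS27, a serine protease, at 1.09 (adjusted p = 0.00277, and 0.64 after normexp without the bright surroundings), and ATXN1L at 0.41 (adjusted p = 0.0263). The ATXN1L call was lost in 6 of 15 alternatives, among them the replicate block (adjusted p = 0.0566), the absence of a filter (0.0633) and leaving out control replicate 1 (0.0725), knockdown replicate 1 (0.116) or knockdown replicate 2 (0.0674). The other genes with the repeat lay between -0.33 and 0.35, so the repeat was also present in genes without a rise. Of the chosen genes that rose, neither CRABP2 nor RARG held any of the searched repeats in its windows.

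**Figure D4:**
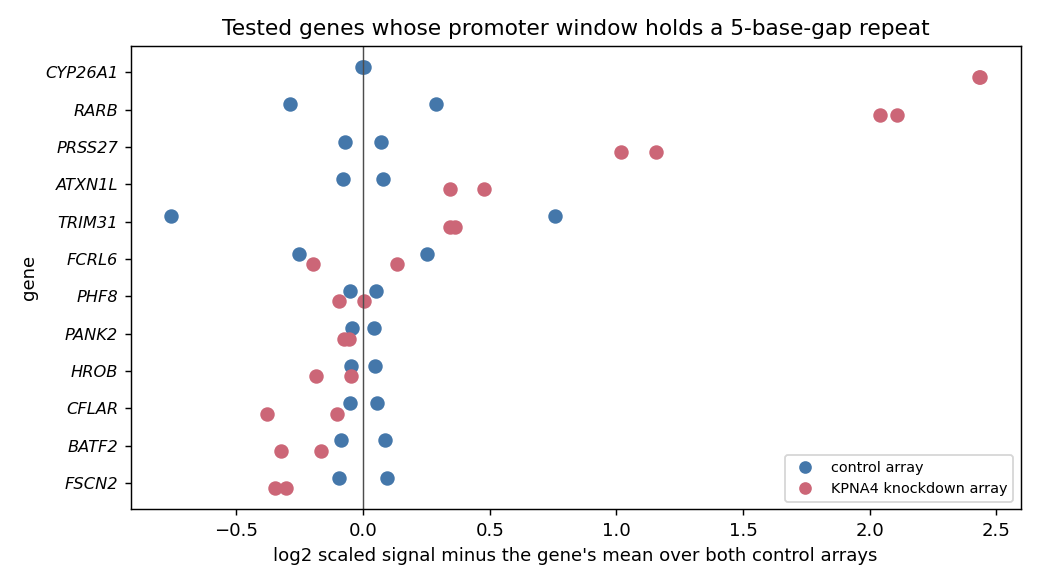
For each of the 12 tested genes with a 5-base-gap repeat in a promoter window, the log2 scaled signal of the 2 control (blue) and 2 knockdown (red) arrays is drawn relative to that gene's control mean (horizontal axis). Knockdown arrays of CYP26A1 and RARB lie more than 2 above the control mean, while TRIM31, FCRL6 and PHF8 overlap between groups; RARB and TRIM31 each had 1 control array not well above background.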

How the data were processed

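Total RNA was labelled with Cy3 and hybridized to Agilent whole-genome arrays. The deposited intensity is the processed signal of the authors' Feature Extraction software (11.0.1.1), already background-subtracted per the file headers. Judged from its values, the authors' deposited value table holds the ratio of each probe's processed signal to its array's 75th percentile, computed before deposition. The log2 of this ratio served as an alternative. It nearly repeated the setting used, with a median log2 fold change of all genes of -0.104 against -0.102. Control spots and outlier-flagged spots were dropped, replicate spots were averaged by probe, and log2 signals were scaled to the 75th percentile of each array. Of 34127 probes, 25771 were named by matching accessions to RefSeq. A probe was kept where both control arrays or both knockdown arrays read it well above background, the brightest probe represented a gene, and limma 3.58.1 (R 4.3.3; lmFit, eBayes) tested the knockdown against the control (Benjamini-Hochberg over all genes, 0.05). A fit over probes served second probes. The fit was tested on simulated data with known changes. Precision is limited by having 2 arrays a group. Genes and lists were chosen with earlier results of these data known. Named were all chosen genes, KPNA4 and up to 3 called genes of each list with the largest change whose arrays did not overlap; others are said to be named after their values were seen, and some items are not reported here. Alternatives were quantile, median and no scaling, normexp with an offset of 50, the authors' table, other filters, the mean over probes, trended and robust moderation, stricter thresholds, a replicate block and leaving out each array. Normexp without 12 spots whose local background exceeded 100 was added after seeing the data. Promoters were RefSeq windows of 300 bases.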

Additional observations from a re-analysis of the deposited data

How the results depend on the processing

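With 2 arrays in each group, every p-value rests on 2 residual degrees of freedom and a moderated spread, and dim probes such as those of RARB and ALDH1A1 are limited by background. CRABP2, RARB and RARG stayed higher under every alternative that tested them, with log2 fold changes of 1.96 to 4.60, 0.30 to 2.58 and 0.96 to 1.64, and lost their call only under normexp on all spots. That setting left 0 calls in either direction for all genes (limma, 1149 genes at an unadjusted p under 0.05, against 11432 in the setting used), for the chosen genes and for each of the 4 lists. Leaving out the 12 spots in bright surroundings brought the calls back, with 9061 genes lower, 3 chosen genes lower, 3 receptors and coregulators lower and 2 retinoid-repressed genes lower. ALDH1A1 reversed to 0.27 without scaling and 1.18 under normexp on all spots, RARRES1 to 0.042 and 0.65, CRABP1 to 0.12 and 0.95, RXRB to 0.49 and 0.22, RXRG to 0.45 and 1.03, and the second CRABP2 probe to 0.32 and 1.06; for the scaling, the percentile is higher on the knockdown arrays, so its removal raises every difference, and RXRB and RXRG were then called higher. Leaving out each array moved RXRB between -0.11 and 0.080 and RXRG between -0.12 and 0.022, so that RXRB also reversed without control replicate 2 or knockdown replicate 1 and RXRG without knockdown replicate 2. TGM2 reversed to 0.12 without scaling and 0.095 as the mean over probes. Under normexp without the bright surroundings RDH12 (-0.087), BCO1 (-0.032) and the second RARB probe (-0.18) reversed; the cause was not tested.

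Without scaling 11256 genes were higher and 1046 lower, 0 chosen genes were lower, 16 receptors and coregulators were higher and 0 lower, 1 metabolism and transport gene was lower and 2 retinoid-induced genes were lower. At an adjusted p under 0.01 the counts were 2133 higher and 2341 lower for all genes, 2 lower for metabolism and transport, 4 higher for receptors and coregulators and 3 lower for retinoid-induced genes. With at least a 2-fold change they were 1032 and 630 for all genes, 0 lower for the chosen genes, 1 lower for metabolism and transport, 3 higher and 0 lower for receptors and coregulators, 3 higher and 2 lower for retinoid-induced genes and 0 lower for retinoid-repressed genes. Trended and robust moderation called 2 receptors and coregulators lower, the absence of a filter 3 metabolism and transport genes lower, and the requirement of all 4 arrays above background 0 retinoid-repressed genes lower. Leaving out each array in turn gave 2152 to 3595 genes higher and 2524 to 4743 lower, with the lowest counts without a knockdown array. Over the same fits the chosen genes gave 3 higher throughout and 1 to 2 lower, metabolism and transport 11 to 13 higher and 1 to 4 lower, receptors and coregulators 3 to 8 higher and 1 lower, retinoid-induced genes 8 to 10 higher and 3 to 5 lower, and retinoid-repressed genes 4 higher and 1 to 2 lower.

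Samples with the same replicate number share only that number, and their deviations from the group means correlated at -0.034. With the replicate as a block, 3262 genes were higher and 4637 lower, 3 chosen genes were higher and 2 lower, and the paired fit moved no count of calls by over 1.5 times; of the named genes it lost the call of ATXN1L (adjusted p = 0.0566).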
